A study of Rattus norvegicus with 8 samples.

Results

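The enzymes and transporters that build and sulfate glycosaminoglycans were followed across the zones of the rat femur growth plate. From a list of 42 genes, 37 had a probe set that the platform annotation gives to that gene alone, out of 14217 genes measured in this way. The probe set with the highest mean stood for each gene. Chst7, Chst15, Ust, Dse and Has1 were not analysed here. Each of the 4 zones (perichondral, reserve, proliferative and hypertrophic) had 1 Affymetrix array from rats aged 42 days and 1 from rats aged 46 days, and every array received total RNA pooled from 3 rats. No group was treated, and the labels give no strain, sex or genotype. The sources used here do not say by what method the zones were taken apart.

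Glycosaminoglycans are long sugar chains, mostly attached to proteoglycan core proteins such as aggrecan. Their sulfate groups hold water and give cartilage its resistance to compression, and heparan sulfate chains also bind growth factors and hedgehog proteins. A chain starts with a linkage region on the core protein, is lengthened as chondroitin or heparan, and is then sulfated with a sulfate donor (PAPS) that the cell makes from imported sulfate. Hyaluronan is made at the cell surface without a core protein.

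Values are log2(intensity + 16) after quantile normalization, and differences are between zone means on that scale, which understates differences of dim genes. The levels of different probe sets cannot be compared with each other. As a yardstick for dim signal, 35 genes typical of other organs were used. The 0.95 quantile of their values, 9.57, is called the other-organ level. RNA quality was read from the Gapdh control probe sets, whose 3' to 5' ratio ran from 3.63 to 8.15 and was lower at 46 than at 42 days in all 4 zones. The median deposited intensity of an array was between 226.6 and 348.9. Cartilage markers were present in all arrays. The hypertrophic collagen gene Col10a1 was highest in the hypertrophic arrays, at 16.93 and 15.26. The reserve arrays carried genes of bone and marrow that their label does not imply. The summed intensity of 10 measured leukocyte and marrow genes was 45265 and 41161 in reserve arrays at 42 and 46 days, against 1313 to 4076 in perichondral and proliferative arrays. In hypertrophic arrays it was 23086 at 42 days and 1792 at 46 days. The summed intensity of 6 osteoclast genes was 22459 and 11724 in reserve, 6967 and 6006 in hypertrophic and 222 to 1706 in the other arrays. The 42-day hypertrophic array had the highest sums of osteoblast genes (5 genes, 172197, against 102782 and 86075 in reserve and 8116 in the 46-day hypertrophic array). Its summed intensity of 13 fibrous genes was also highest (207616, against 10373 at 46 days), and Col1a1 is in both lists. The median of the fibrous genes was not highest there, at 8.85 against 10.29 and 9.535 in perichondral arrays. The part of such cells in the members' differences was not tested, and in bulk RNA fewer cells of a type cannot be told apart from less RNA per cell.

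No glycosaminoglycan enzyme passed the threshold (adjusted p below 0.05 over all 31042 probe sets, limma) between any pair of zones or among the 4 zones. The smallest adjusted p over the members was 0.408 between zones (Sulf2, reserve against hypertrophic) and 0.757 for the F test among the 4 zones. At an unadjusted p below 0.05 the F test took in 4 members, 10.8% of them against 7.16% of all genes. Those 4 were Sulf2, Csgalnact1, Glce and Xylt2. In the F test with adjustment 0.0703% of all genes passed. The standard error of a difference between 2 zones was 0.56 to 1.39 for the members, with a median of 1.04. Differences of a few fold were therefore within the error, and a missed threshold does not show that zones had equal levels.

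The hypertrophic arrays most often held the lowest values. In a count chosen after seeing the data, 7 of 37 members (18.9%, against 4.54% of genes) had both hypertrophic arrays below all 6 others. These were the sugar-supply enzymes Ugdh and Ugp2, the chondroitin enzymes Chsy1, Csgalnact1 and Chst12, the heparan initiator Extl3 and the sulfatase Sulf2. Chsy1 was separated narrowly, at 10.17 in the 46-day hypertrophic and 10.24 in the 46-day reserve array. Other probe sets of Csgalnact1, Chst12 and Extl3 did not bear this out, with perichondral-to-hypertrophic differences of 0.18, -1.48 and -0.47. Chst12 and Extl3 were below the other-organ level in all 8 arrays. The count was 8 (against 7.05% of all genes) without the reserve arrays, and 5 with values as deposited (4.38%) and 5 with median-centred arrays (4.62%). It was 12 (against 18% of genes) without the 42-day hypertrophic array, where only 1 hypertrophic array had to be lowest. Both perichondral arrays lay below all 6 others in 1 member (2.7% against 3.28% of all genes). Both reserve arrays did so in 0 (against 4.16%), and both proliferative arrays in 1 (2.7% against 3.96%). The hypertrophic zone had the lowest mean in 16 members, the proliferative in 13, the perichondral in 5 and the reserve in 3. Among all genes the shares were 27.2%, 25.9%, 22.4% and 24.5%.

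**Figure D1:**
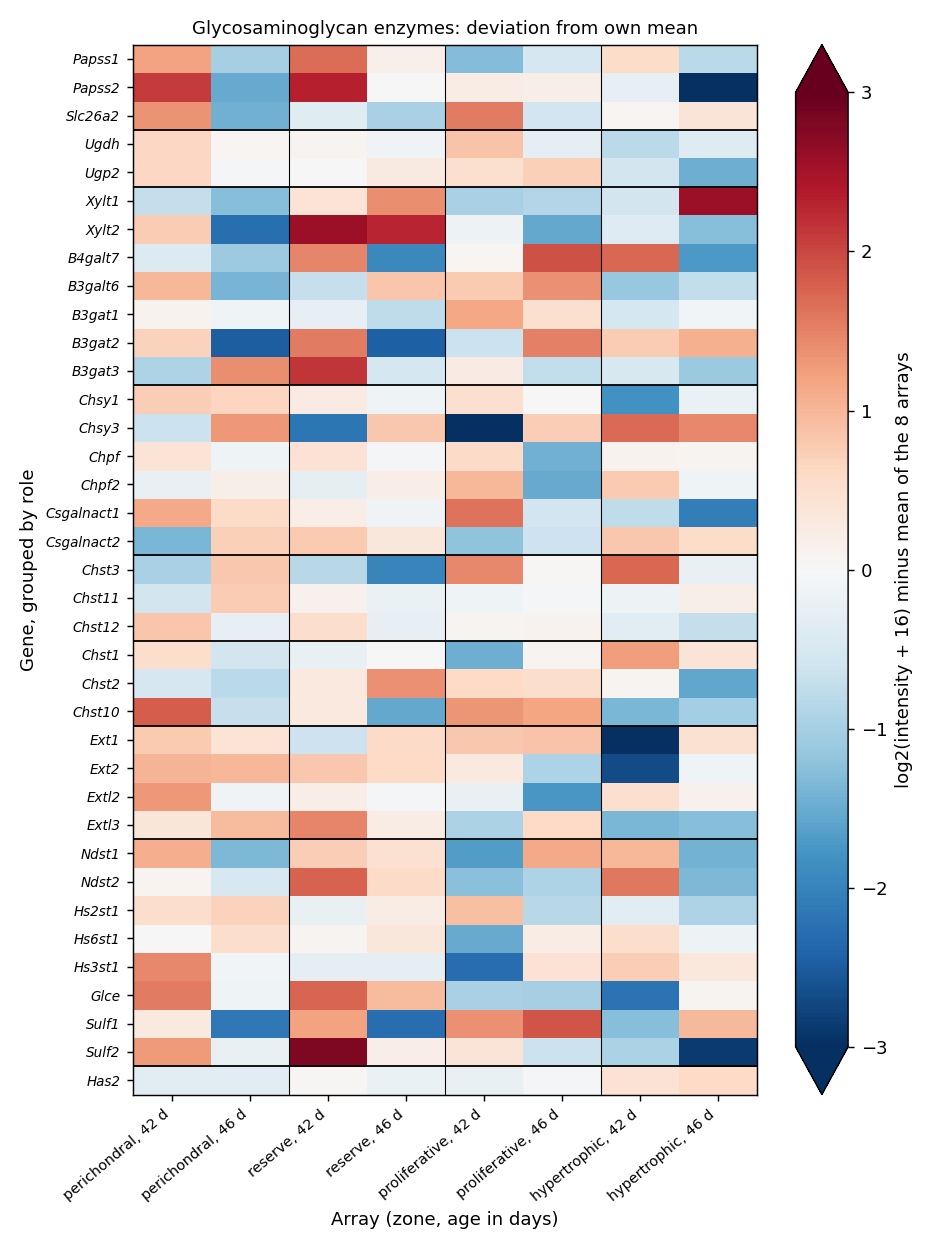
Each row is 1 of the 37 measured genes, grouped by role and separated by lines, and each column is 1 array. Colour gives log2(intensity + 16) minus the gene's own mean over the 8 arrays, from blue (below) to red (above). Sulf2, Csgalnact1 and Ugp2 are blue in both hypertrophic arrays, while Ext1 and Ext2 are dark blue in the 42-day hypertrophic array.

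The sulfate donor is made by Papss1 and Papss2, and Papss2 is the form that cartilage relies on. Papss2 was at 15.26 and 11.65 in perichondral arrays at 42 and 46 days, 15.49 and 13.18 in reserve, 13.40 and 13.35 in proliferative, and 12.93 and 10.11 in hypertrophic arrays. Both hypertrophic arrays were below both reserve and both proliferative arrays, while the perichondral arrays were far apart. The difference between reserve and hypertrophic was 2.82 (SE 1.05), a 7.04-fold difference with an unadjusted p of 0.0162 and an adjusted p of 0.539 (limma), and ran from 1.41 to 4.22 with an array left out. Papss2 was above the other-organ level in all 8 arrays. A dimmer Papss2 probe set gave a reserve-to-hypertrophic difference of 0.46.

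Papss1 was at 10.92 and 8.71 in perichondral, 11.38 and 9.87 in reserve, 8.41 and 9.21 in proliferative and 10.27 and 8.91 in hypertrophic arrays. Only the reserve and proliferative arrays did not overlap, with a difference of 1.82 (SE 0.81, adjusted p = 0.636). The sulfate importer Slc26a2, whose loss causes skeletal dysplasia in humans, was at 7.73 and 4.93 in perichondral, 6.02 and 5.41 in reserve, 7.94 and 5.81 in proliferative and 6.45 and 6.78 in hypertrophic arrays. All 8 values were below the other-organ level. Its zone means ran from 5.71 (reserve) to 6.87 (proliferative), closer together than the perichondral arrays.

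Ugp2 makes UDP-glucose, and Ugdh oxidises it to the UDP-glucuronic acid that every chain except keratan needs. Ugp2 was at 10.54 and 9.87 in perichondral, 9.92 and 10.18 in reserve, 10.40 and 10.62 in proliferative and 9.36 and 8.44 in hypertrophic arrays. The hypertrophic arrays lay apart below the rest, by 1.61 (SE 0.62, unadjusted p = 0.0184, adjusted p = 0.896) from proliferative and 1.31 (SE 0.62, adjusted p = 0.806) from perichondral arrays. Ugdh was at 12.27 and 11.71 in perichondral, 11.74 and 11.56 in reserve, 12.51 and 11.39 in proliferative and 10.84 and 11.27 in hypertrophic arrays. It was above the other-organ level throughout, and its largest difference between zones, perichondral over hypertrophic, was 0.93 (SE 0.56).

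Of the 7 members grouped under the linkage region, the first sugars on the core protein, Xylt2 had the largest difference. This xylosyltransferase was at 9.71 and 9.43 in reserve arrays against 7.89 and 4.87 in perichondral, 6.98 and 5.61 in proliferative and 6.74 and 5.87 in hypertrophic arrays. It was the only member with both reserve arrays above all 6 others (2.7% of members, 5.44% of all genes). Reserve lay above proliferative by 3.27 (SE 1.26, adjusted p = 0.594), and above hypertrophic by 3.26 (adjusted p = 0.547). Perichondral minus reserve was -3.18 (adjusted p = 1), or -1.67 without the 46-day perichondral array. Its other 2 probe sets differed in direction, with perichondral minus reserve at -1.48 and 0.77, and the leukocyte, erythroid and osteoclast sums were also highest in reserve arrays. Their part in the Xylt2 values was not tested.

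Xylt1, the xylosyltransferase known from skeletal growth, was at 5.59 and 5.02 in perichondral, 6.70 and 7.71 in reserve, 5.33 and 5.43 in proliferative and 5.76 and 8.87 in hypertrophic arrays. All 8 values were below the other-organ level, and the 2 hypertrophic arrays were the furthest apart. Perichondral minus hypertrophic was -2.01 (SE 1.16, adjusted p = 0.846) and proliferative minus hypertrophic -1.94 (adjusted p = 0.927). Without the 46-day hypertrophic array they were -0.45 and -0.38. The galactosyltransferase B4galt7 was below its proliferative values (7.79 and 9.62) in perichondral arrays (7.30 and 6.64), with a difference of -1.73 (SE 1.36, adjusted p = 0.963), or -0.82 without the 46-day proliferative array. B3galt6, which adds the next galactose, was at 7.36 and 7.94 in proliferative and 5.43 and 5.84 in hypertrophic arrays, a difference of 2.02 (SE 1.18, adjusted p = 0.927). B3gat2, a glucuronyltransferase, was at 8.45 and 5.30 in perichondral and 8.53 and 8.83 in hypertrophic arrays, with a difference of -1.81 (SE 1.39, adjusted p = 0.884) that was -0.23 without the 46-day perichondral array. Xylt2 and B4galt7 aside, only B3gat1 exceeded the other-organ level among the members grouped under the linkage region, in 1 proliferative array. It is a glucuronyltransferase studied mainly in nerve.

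Chondroitin chains are started by Csgalnact1 and Csgalnact2 and lengthened by Chsy1, Chsy3, Chpf and Chpf2. Csgalnact1 was at 12.93 and 12.38 in perichondral, 11.99 and 11.69 in reserve, 13.42 and 11.22 in proliferative and 11.03 and 9.73 in hypertrophic arrays. Both hypertrophic arrays were lowest, and all 8 were above the other-organ level. The difference was 2.28 (SE 0.69, 4.85-fold, unadjusted p = 0.0042, adjusted p = 0.643) from perichondral, 1.94 (adjusted p = 0.894) from proliferative and 1.46 (adjusted p = 0.614) from reserve arrays. A second Csgalnact1 probe set stayed between 9.82 and 10.46 in all 8 arrays, with a perichondral-to-hypertrophic difference of 0.18.

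Chsy1 was at 11.101 and 11.002 in perichondral, 10.61 and 10.24 in reserve, 10.85 and 10.37 in proliferative and 8.54 and 10.17 in hypertrophic arrays. It was the only member with both perichondral arrays above and both hypertrophic arrays below all others, and the hypertrophic gap came mainly from the 42-day array. The perichondral-to-hypertrophic difference was 1.70 (SE 0.63, unadjusted p = 0.015, adjusted p = 0.731). Chsy3, its relative, stood the other way. Both hypertrophic arrays, at 9.91 and 9.66, were above perichondral (7.57 and 9.51), reserve (6.06 and 9.02) and proliferative arrays (5.05 and 8.96). The proliferative-to-hypertrophic difference was -2.78 (SE 1.27, adjusted p = 0.897), but -0.83 without the 42-day proliferative array. Against hypertrophic arrays Chsy3 was at -2.25 for reserve (adjusted p = 0.68) and -1.25 for perichondral (adjusted p = 0.909). Without the 42-day array of the zone named first these were -0.77 and -0.28. Csgalnact2 was below its hypertrophic values (8.91 and 8.64) in proliferative arrays (6.89 and 7.48), with a difference of -1.59 (SE 0.99, adjusted p = 0.927).

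The chondroitin sulfotransferases known for cartilage phenotypes gave dim values. Chst11, whose loss disturbs the mouse growth plate, was at 5.01 and 6.31 in perichondral, 5.70 and 5.35 in reserve, 5.43 and 5.52 in proliferative and 5.41 and 5.73 in hypertrophic arrays, with zone means from 5.47 (proliferative) to 5.66 (perichondral). They spanned only 0.19, less than its perichondral arrays differed. Chst3, which sulfates a different position of the same sugar, was at 5.83 and 7.61 in perichondral, 5.97 and 4.82 in reserve, 8.24 and 6.84 in proliferative and 8.52 and 6.58 in hypertrophic arrays. Both reserve arrays were below both proliferative and both hypertrophic arrays, with differences of -2.14 (SE 1.23, adjusted p = 0.728) and -2.15 (adjusted p = 0.684), the latter -1.18 without the 42-day hypertrophic array. Chst11, Chst12 and Chst3 were below the other-organ level in all 8 arrays.

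Among sulfotransferases that act on other chains, Chst10, which completes the HNK-1 carbohydrate, was at 7.74 and 7.59 in proliferative and 5.05 and 5.40 in hypertrophic arrays. That difference was 2.44 (SE 1.17, unadjusted p = 0.0525, adjusted p = 0.897). In perichondral and reserve arrays its ages were far apart, at 8.24 and 5.74 and at 6.71 and 4.89. Reserve minus proliferative was -1.87 (SE 1.17, adjusted p = 0.745), or -0.96 without the 46-day reserve array. Chst2, a sulfotransferase of N-acetylglucosamine, was below its reserve values (7.16 and 8.24) in perichondral arrays (6.37 and 6.06), with a difference of -1.49 (SE 1.15), or -0.95 without the 46-day reserve array. It was also below its proliferative values there, at -1.22. Chst1, a keratan sulfotransferase, was at 10.19 and 9.31 in hypertrophic and 8.72 and 8.94 in reserve arrays, with reserve minus hypertrophic at -0.92 (SE 0.80, adjusted p = 0.799), or -0.48 without the 42-day hypertrophic array.

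**Figure D2:**
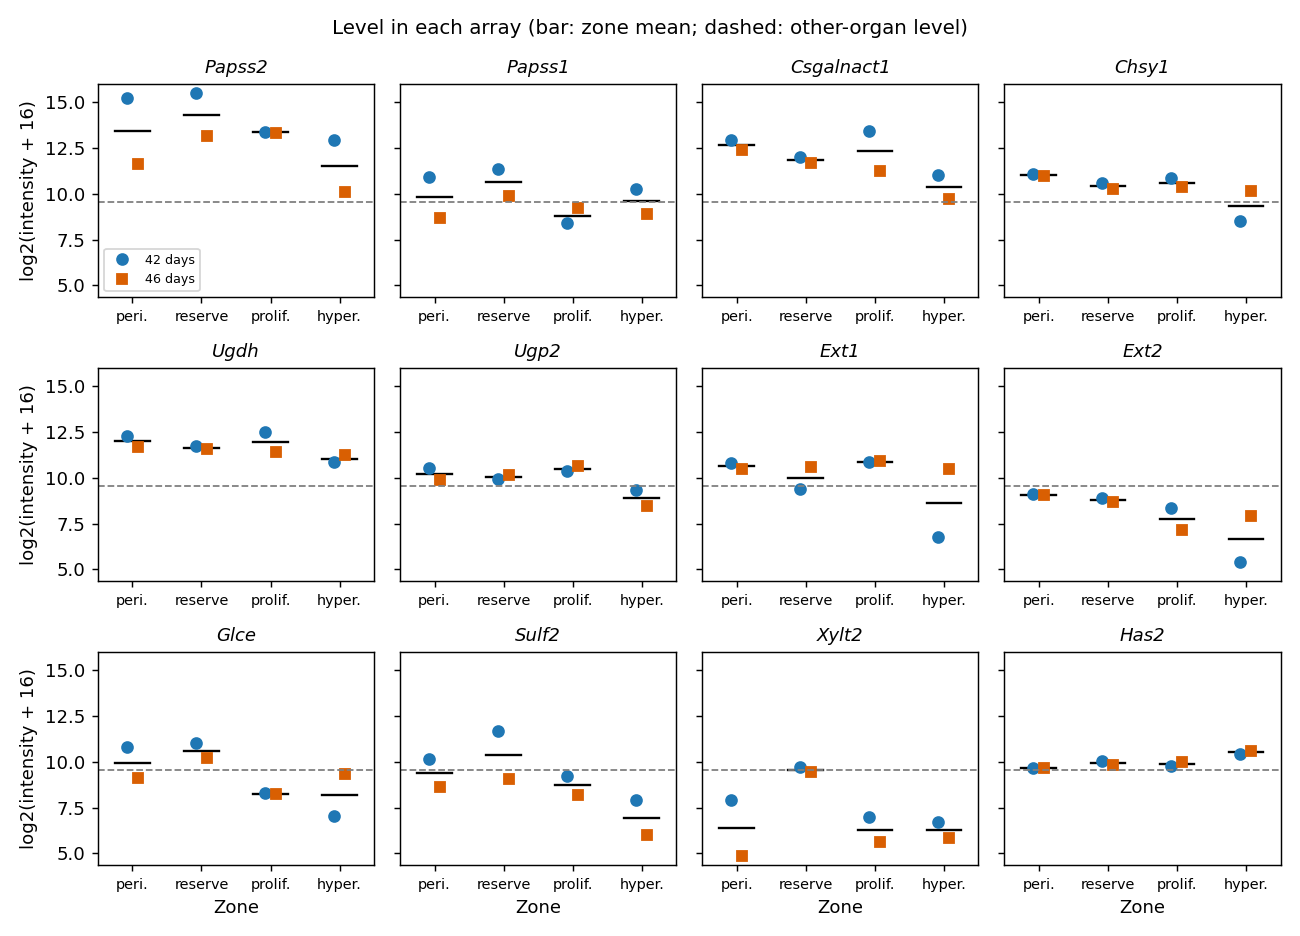
Each panel shows 1 gene, with zones on the x axis and log2(intensity + 16) on the y axis, circles for 42 days, squares for 46 days and a bar for the mean of the 2 arrays. The dashed line is the other-organ level of 9.57. Csgalnact1, Ugp2 and Sulf2 are lowest in both hypertrophic arrays, Ext1 and Ext2 are lowest in the 42-day hypertrophic array, and Has2 stays between 9.68 and 10.62.

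Heparan chains are lengthened by a complex of Ext1 and Ext2, whose loss causes cartilage-capped bone tumours. Ext1 was at 10.83 and 10.46 in perichondral, 9.41 and 10.61 in reserve, 10.85 and 10.91 in proliferative and 6.79 and 10.50 in hypertrophic arrays. The low 42-day hypertrophic array set the difference from proliferative arrays, which was 2.24 (SE 0.89, adjusted p = 0.896) with it and 0.38 without it. A second Ext1 probe set was at 9.09 in that array and did not show the low value. Ext2 was at 9.10 and 9.06 in perichondral, 8.89 and 8.68 in reserve, 8.36 and 7.15 in proliferative and 5.39 and 7.93 in hypertrophic arrays, again with the lowest value in the 42-day hypertrophic array. Its perichondral-to-hypertrophic difference was 2.42 (SE 1.04, unadjusted p = 0.0338, adjusted p = 0.78), and 1.15 without that array. Perichondral lay above proliferative arrays by 1.32 (SE 1.04, adjusted p = 0.963), or 0.72 without the 46-day proliferative array. Extl2, a related transferase, was lowest in the proliferative arrays, at 9.83 and 8.31, against 11.36 and 9.95 in perichondral, 10.248 and 9.999 in reserve and 10.53 and 10.19 in hypertrophic arrays. Its perichondral-to-proliferative difference was 1.58 (SE 0.68, adjusted p = 0.963). It was 0.88 without the 42-day perichondral and 0.82 without the 46-day proliferative array.

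Heparan is modified by sulfotransferases, by the epimerase Glce, which turns glucuronic into iduronic acid, and outside the cell by the sulfatases Sulf1 and Sulf2, which remove sulfate and so alter growth factor binding. Sulf2 was at 10.15 and 8.63 in perichondral, 11.67 and 9.07 in reserve, 9.24 and 8.21 in proliferative and 7.92 and 5.99 in hypertrophic arrays. Both hypertrophic arrays lay below all others, and the 42-day array was above the 46-day array in every zone. Only the 42-day perichondral and reserve arrays were above the other-organ level. The reserve-to-hypertrophic difference was 3.41 (SE 0.97, 10.7-fold, unadjusted p = 0.00275, adjusted p = 0.408), and ran from 2.11 to 4.71 with an array left out. The perichondral-to-hypertrophic difference was 2.43 (SE 0.97, adjusted p = 0.762), or 1.47 without the 46-day hypertrophic array. Sulf1 was highest in the proliferative arrays, at 9.26 and 9.80, and at 8.19 and 5.75 in perichondral, 9.10 and 5.62 in reserve and 6.63 and 8.88 in hypertrophic arrays. The perichondral-to-proliferative difference of Sulf1 was -2.56 (SE 1.28, adjusted p = 0.963), and -1.34 without the 46-day perichondral array. Its reserve-to-proliferative difference was -2.17 (adjusted p = 0.734), which was -0.43 once the reserve array of 46 days was left out. A second Sulf1 probe set gave 0.34 and -0.09 for these differences.

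Glce was at 10.80 and 9.12 in perichondral, 11.01 and 10.20 in reserve, 8.28 and 8.25 in proliferative and 7.03 and 9.34 in hypertrophic arrays. Reserve arrays lay above proliferative arrays by 2.34 (SE 0.84, unadjusted p = 0.0126, adjusted p = 0.548) and above hypertrophic arrays by 2.42 (adjusted p = 0.508). Perichondral arrays lay above proliferative arrays by 1.70 (adjusted p = 0.963), or 0.86 without the 42-day perichondral array. Ndst2, which replaces acetyl by sulfate on the nascent chain, was at 7.80 and 6.62 in reserve and 4.79 and 5.11 in proliferative arrays, a difference of 2.26 (SE 1.10, adjusted p = 0.671). Hs3st1, which adds a rare sulfate needed for antithrombin binding, was above its reserve values (7.82 and 7.80) in perichondral arrays (9.55 and 8.02), by 0.97 (SE 1.07), or 0.21 without the 42-day perichondral array. The hyaluronan synthase Has2 had the narrowest range over the 8 arrays of all 37 members, at 9.69 and 9.68 in perichondral, 10.05 and 9.82 in reserve, 9.79 and 9.98 in proliferative and 10.45 and 10.62 in hypertrophic arrays. Both hypertrophic arrays were above all others, with a perichondral-to-hypertrophic difference of -0.84 (SE 0.58, adjusted p = 0.875).

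The other 9 members (B3gat1, B3gat3, Chpf, Chpf2, Chst12, Extl3, Ndst1, Hs2st1 and Hs6st1) had values from 4.81 to 12.49. Their zone means spanned 0.58 to 2.17, and their unadjusted p in the F test ran from 0.239 to 0.952. Hs2st1, a heparan sulfotransferase, was among the 5 members above the other-organ level in all 8 arrays, with Papss2, Ugdh, Csgalnact1 and Has2. Such members made up 13.5%, against 7.45% of all genes. In all, 19 members (51.4%) were above that level in no array, as were 55.8% of all genes. Those 19 included Ext2, Chst10, Ndst2, Hs3st1, Csgalnact2 and Chst2. Over the 37 members the median span of zone means was 1.70, and in 26 the widest gap between the 2 arrays of a zone exceeded that span.

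Papss2, Chsy1 and Sulf2 are shown with the 250 bases before their start site, because Papss2 had the largest age difference, and Chsy1 and Sulf2 were lowest in both hypertrophic arrays. The sequences are from RefSeq (GRCr8), where 28 of 37 members had an entry. Capitals mark the GC box (GGGCGG, with CCGCCC on the other strand) and the TATA box (TATAAA or TTTATA), and the SOX core (AACAAT or ATTGTT) was searched too.
Papss2, chr1:239867463-239867712, plus strand: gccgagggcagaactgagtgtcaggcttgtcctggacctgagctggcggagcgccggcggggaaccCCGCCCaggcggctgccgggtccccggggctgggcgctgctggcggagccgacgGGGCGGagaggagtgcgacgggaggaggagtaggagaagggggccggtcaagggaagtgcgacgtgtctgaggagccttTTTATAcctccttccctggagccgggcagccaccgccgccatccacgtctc
Chsy1, chr1:129099838-129100087, plus strand: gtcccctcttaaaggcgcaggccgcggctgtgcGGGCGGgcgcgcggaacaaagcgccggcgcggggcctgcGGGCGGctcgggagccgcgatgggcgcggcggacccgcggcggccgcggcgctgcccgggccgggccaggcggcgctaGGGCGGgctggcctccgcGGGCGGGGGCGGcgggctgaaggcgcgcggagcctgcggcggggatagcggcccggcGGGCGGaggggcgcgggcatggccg
Sulf2, chr3:175323652-175323901, minus strand: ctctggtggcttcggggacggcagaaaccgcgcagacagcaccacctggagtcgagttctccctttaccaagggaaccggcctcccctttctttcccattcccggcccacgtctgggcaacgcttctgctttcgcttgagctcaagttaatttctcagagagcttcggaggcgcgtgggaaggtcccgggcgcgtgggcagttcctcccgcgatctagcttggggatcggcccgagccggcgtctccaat
The Papss2 window held 2 GC boxes and 1 TATA box match, the latter as TTTATA, the reverse complement of TATAAA. The Chsy1 window held 6 GC boxes and the Sulf2 window none of the 3 motifs. A GC box was in 19 of the 28 member windows and in 32.4% of 27457 promoter windows of this length. The SOX core was in 1 of 28 (10.3% of all) and the TATA box in 1 of 28 (13.1%). A match is a description of letters only.

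The comparison of perichondral with reserve arrays, the zones in the series title, gave few separated members. At an adjusted p below 0.05 0 members were called, as were 0% of all genes. At an unadjusted p below 0.05, 1 member (Xylt2) was lower (2.7%, against 2.58% of all genes) and 0 were higher (against 1.34%). Both perichondral arrays were above both reserve arrays in 6 members (16.2% against 16.7%) and below them in 5 (13.5% against 18.4%). In 19 members (51.4% against 47.5%) the perichondral mean was higher, and the median difference was 0.03 over the members and -0.05 over all genes. The shares were near those of all genes. Those with the largest separated differences were Hs3st1, Csgalnact1 (0.82, or 0.54 without the 42-day perichondral array) and Chsy1 (0.63) above, and Xylt2, Xylt1 (-1.90) and Chst2 below.

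Perichondral against proliferative arrays gave 1 member higher at an unadjusted p below 0.05 (Extl2, 2.7% against 3.3%) and 0 lower (against 1.93%), with 0 called after adjustment (0% of all genes). Reserve against proliferative arrays gave 3 higher, Papss1, Xylt2 and Glce (8.11% against 6.1%), and 0 lower (against 2.41%), with 0 called (0.0352% of genes higher, 0% lower). Both perichondral arrays were above both proliferative arrays in 5 members (13.5% against 17.4%) and below them in 6 (16.2% against 17.1%). Both reserve arrays were above both proliferative arrays in 8 (21.6% against 21.3%) and below them in 6 (16.2% against 19.1%). The members' shares were again close to those of all genes. The perichondral mean was higher in 24 members (64.9% against 51%) and the reserve mean in 23 (62.2% against 52.3%). Without the 42-day reserve array, 0 members were higher and 1 was lower in reserve than in proliferative arrays. For perichondral against proliferative arrays the count of 1 was 0 when the perichondral array of 42 days was left out, 3 when that of 46 days was left out, and 2 without either proliferative or either hypertrophic array. Their count of 0 lower was 1 without the 42-day perichondral array and 1 without the 46-day reserve array. The median differences were 0.205 and 0.265, against 0.02 and 0.06 over all genes.

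Of the 3 comparisons with hypertrophic arrays, those of perichondral and reserve arrays held larger counts than any other comparison of zones. Perichondral arrays were higher at an unadjusted p below 0.05 in 7 members (18.9%, against 4.53% of all genes), namely Ugp2, Chsy1, Csgalnact1, Ext1, Ext2, Glce and Sulf2. None was lower (against 2.32%), and 0 were called after adjustment, where 0.0492% of genes were higher and 0% lower. Of the 7 higher members, Chsy1, Ext1, Ext2 and Glce had their lowest value in the 42-day hypertrophic array. At 46 days Ext1 (10.46 and 10.50) and Glce (9.12 and 9.34) were lower in the perichondral than in the hypertrophic array. Without the 42-day perichondral array the count was 1, and with any other array left out it was 4 or 5. Reserve arrays were higher in 5 members (13.5% against 6.36%), Papss2, Xylt2, Csgalnact1, Glce and Sulf2, and lower in 0 (against 2.7%), and none was called (0.0352% of genes higher, 0.00703% lower). That count was 0 without the 42-day and 3 without the 46-day reserve array. Proliferative arrays were higher in 3 (8.11% against 3.08%), Ugp2, Csgalnact1 and Ext1, and lower in 1, Chsy3 (2.7% against 2.64%), with none called (0% of genes higher, 0.0141% lower). The count of 3 was 1 without the 42-day proliferative array and 2 without the 46-day hypertrophic array, and the count of 1 was 3 without the 46-day proliferative array. These comparisons share the hypertrophic arrays, so they are not separate evidence.

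Both arrays of the other zone were above both hypertrophic arrays in 10 members for perichondral (27% against 18.3%), 14 for reserve (37.8% against 20.6%) and 14 for proliferative (37.8% against 15.5%). They were below in 4 (10.8% against 17.6%), 6 (16.2% against 18.8%) and 6 (16.2% against 15.8%). Hypertrophic means were the lower in 25 members against perichondral (67.6%, and 50.8% of all genes), 22 against reserve (59.5%, and 52.4%) and 20 against proliferative (54.1%, and 50%). The median differences were 0.154, 0.594 and 0.26, against 0.02, 0.07 and 0.00 over all genes. All 13 measured chondrocyte markers were also lower in hypertrophic than in reserve arrays, with a median difference of 1.37. Their summed intensity was 429374 and 88838 in hypertrophic arrays at 42 and 46 days, and 291395 to 786878 in the other arrays. Whether the chondrocyte share of the RNA set the members' differences was not tested.

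**Figure D3:**
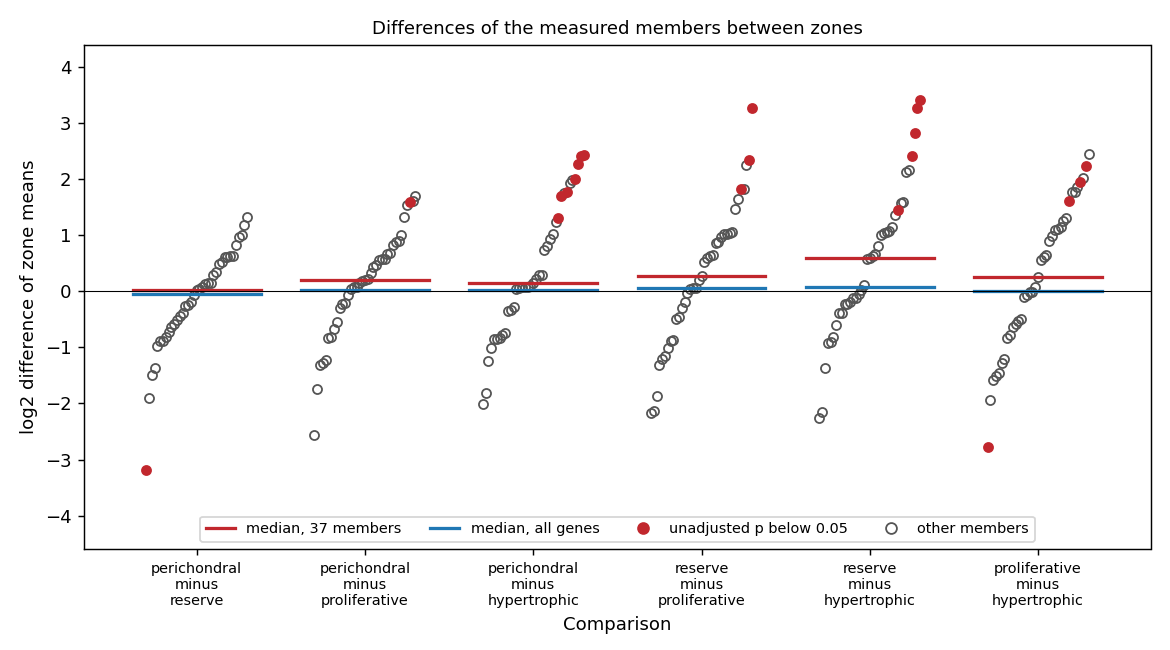
Each point is 1 of the 37 members, ordered by size within a comparison, and the y axis is the log2 difference of the 2 zone means. Filled red points have an unadjusted p below 0.05, and lines give the median of the members (red) and of all genes (blue). The members' median is highest for reserve minus hypertrophic, at 0.594, and near 0 for perichondral minus reserve.

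The labels call the ages replicates, and the ages were also compared, in a fit that held zone. The p-values of that fit rest on how evenly the age difference ran over the 4 zones. They do not rest on the spread between pools of the same zone and age. Whether the zones of an age shared rats was not established here, so age cannot be told apart from differences between pools. Papss2 had the largest difference between 46 and 42 days, -2.20 (SE 0.45, 4.59-fold lower, unadjusted p = 0.000101, adjusted p = 0.118 with limma). It was -3.61 for perichondral and -2.32 for reserve arrays, -0.05 for proliferative and -2.82 for hypertrophic arrays. The call depended on the scaling, with an adjusted p of 0.0228 (difference -2.58) for values as deposited and 0.0053 (-2.82) for median-centred arrays. With both Papss2 probe sets averaged, the difference was -1.53. Among members that differed the same way in all 4 zones Sulf2 followed, at -1.77 (SE 0.54, adjusted p = 0.404), with zone values from -2.60 (reserve) to -1.03 (proliferative).

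Chsy3 was higher at 46 days by 2.14 (SE 0.74, adjusted p = 0.474), with 1.94 for perichondral, 2.96 for reserve and 3.91 for proliferative arrays but -0.25 for hypertrophic arrays. Of the 37 members 25 (67.6%) were lower at 46 days, as were 53.5% of all genes, and 0 were called (0% of genes). The median was -0.431 for the members and -0.06 for all genes. At an unadjusted p below 0.05, 4 members were lower, Papss1, Papss2, Csgalnact1 and Sulf2 (10.8% against 6.02%), and 2 were higher, Chsy3 and Ext1 (5.41% against 2.96%). The count of 4 was 3 with values as deposited and 7 with median-centred arrays, and the count of 2 was 1 with both. With an array left out the first was 3 to 5, and the second 0 (without the 46-day reserve array) to 2. Lower in all 4 zones were 6 members (16.2% against 9.28%), Papss2, Xylt2, Chpf, Csgalnact1, Extl2 and Sulf2, and higher in all 4 were 0 (against 7.32%). All 13 chondrocyte markers were lower at 46 days too, with a median of -0.93, and the Gapdh ratio was lower in every zone. All 10 leukocyte and marrow genes were lower as well (median -0.842). In hypertrophic arrays the osteoblast sum was 172197 at 42 and 8116 at 46 days, and the fibrous sum 207616 and 10373. Their part in the age differences was not tested.

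**Figure D4:**
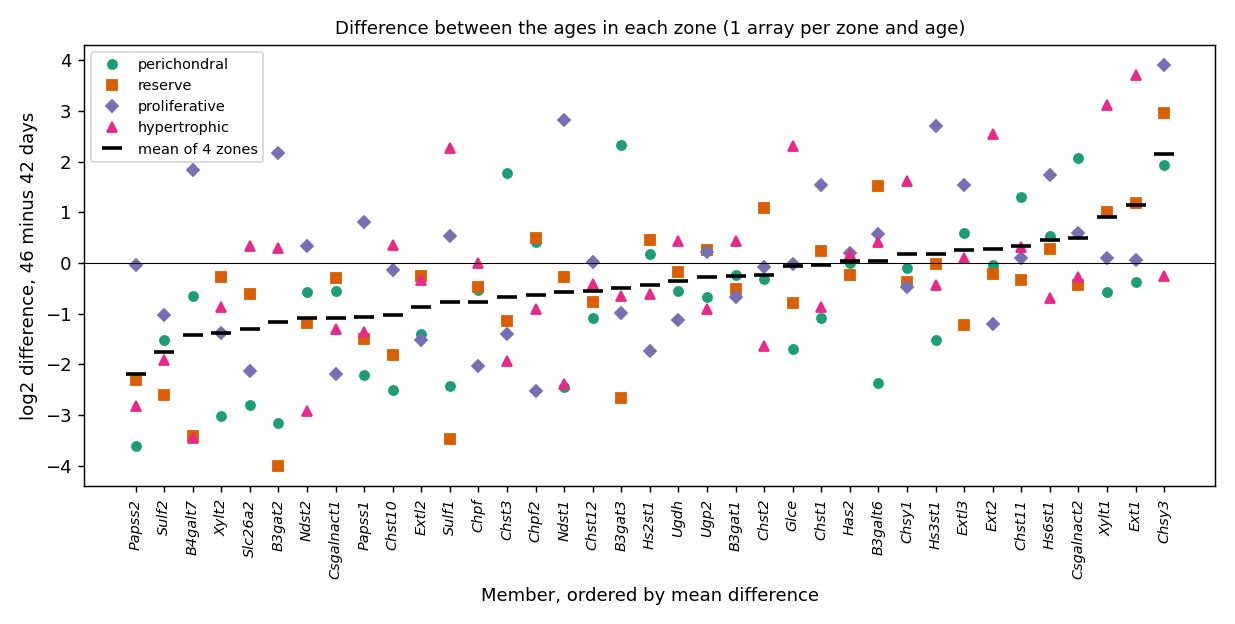
Each column is 1 member, ordered by its mean difference, and symbols give the log2 difference between the 46-day and the 42-day array of each zone. Black dashes are the mean of the 4 zones. Papss2 and Sulf2 are at the left end, at -2.20 and -1.77, and Chsy3 at the right end, at 2.14.

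Other genes of the pathway were counted from 4 lists. Of 27 proteoglycan core protein genes, 24 had a higher mean in perichondral than in hypertrophic arrays and 18 a higher mean in reserve (50.8% and 52.4% of all genes did), with medians of 0.93 and 1.13. With limma 0 were called after adjustment, and 5 in each of these comparisons had an unadjusted p below 0.05, all higher (4.53% and 6.36% of all genes). Fmod, a keratan sulfate proteoglycan, was at 13.38 and 11.29 in perichondral, 14.13 and 11.86 in reserve, 10.75 and 8.57 in proliferative and 8.55 and 6.24 in hypertrophic arrays (F test, adjusted p = 0.083). Bgn, which carries chondroitin or dermatan sulfate, was at 12.79 and 9.65 in reserve and 6.45 and 7.56 in hypertrophic arrays, a difference of 4.22 (SE 0.89, adjusted p = 0.216).

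Of 14 genes of glycosaminoglycan breakdown, 12 had a higher mean in reserve than in proliferative arrays (52.3% of all genes did). At an unadjusted p below 0.05, 3 were higher and 0 lower (6.1% and 2.41% of all genes), and 0 were called. Against hypertrophic arrays the mean was higher in 9 for perichondral, 9 for reserve and 6 for proliferative arrays (50.8%, 52.4% and 50% of all genes). The lysosomal glucuronidase Gusb was at 13.21 and 12.51 in reserve and 11.31 and 10.30 in proliferative arrays, a difference of 2.06 (SE 0.64, adjusted p = 0.457). Naglu, which trims heparan in lysosomes, had a difference of 3.12 (SE 1.21, adjusted p = 0.603). At 46 days 13 of the 14 were lower (53.5% of all genes were), with a median of -0.91.

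Among 15 further genes of sulfate and sugar supply, 10 had a higher mean in perichondral and 10 in reserve than in hypertrophic arrays (50.8% and 52.4% of all genes), with 0 called. At an unadjusted p below 0.05 2 and 3 were higher (4.53% and 6.36% of all genes) and 0 lower. Gfpt2, an enzyme of the hexosamine route, was at 9.358 and 9.502 in perichondral and 5.895 and 7.480 in hypertrophic arrays, a difference of 2.74 (SE 0.84, adjusted p = 0.643). The nucleotide sugar transporter Slc35b4 was at 10.027 and 9.505 in reserve and 9.36 and 4.96 in hypertrophic arrays, with means 2.61 apart (SE 1.09, adjusted p = 0.572). Of 18 other glycosaminoglycan enzymes 0 were called, and perichondral against hypertrophic arrays gave 3 higher and 1 lower at an unadjusted p below 0.05 (4.53% and 2.32% of all genes). Chst4, a sulfotransferase of N-acetylglucosamine, was highest in hypertrophic arrays, at 11.58 and 11.65, against 8.60 and 9.51 in perichondral, 9.79 and 9.96 in reserve and 10.62 and 10.37 in proliferative arrays. Its perichondral-to-hypertrophic difference was -2.56 (SE 0.58, adjusted p = 0.266). Extl1, a relative of Ext1, was lowest in hypertrophic arrays, at 7.56 and 6.13, and at 10.10 and 9.77 in perichondral arrays, a difference of 3.09 (SE 0.81, adjusted p = 0.49).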

How the data were processed

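Deposited for each array were intensities on a linear scale (31099 probe sets). MAS5, GCOS and RMA are named in the submitters' processing notes, with no version and no role. The mean intensity after trimming a share of 0.02 at each end was 500.08 to 500.16 in every array. Per the labels, RNA was extracted on RNeasy columns, amplified with Ovation and labelled with biotin. Detection calls were not used here.

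After removal of 57 controls, 31042 probe sets entered as log2(intensity + 16), quantile normalized. Gene names came from the platform annotation (20826 probe sets with 1 gene, 436 with several, 9780 with none). limma 3.58.1 (R 4.3.3) fitted the zone means to the 8 arrays together, with moderated variances that followed a trend (degrees of freedom 4 residual, 12.58 prior) and Benjamini-Hochberg adjustment over all probe sets. It was tested on simulated data. Named with the value of every array were the 14 members with the largest F over zones and 11 with known skeletal roles, and per comparison of zones the 3 members with the largest separated difference in each direction. For age these were the 2 members in each direction that moved alike in all 4 zones, and per pathway list the 2 genes with the largest F. For zones, the spread behind each p-value is that between pools of different age, which may be technical. For age, it is how unevenly the age difference ran over the 4 zones. The members and lists were chosen with earlier results of these data known. The number of arrays limits the precision.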

Additional observations from a re-analysis of the deposited data

How the results depend on the processing

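Alternatives were values as deposited, median-centred arrays, pseudocounts of 1 and 64, no dim probe sets (21 members kept), no variance trend, the mean of all probe sets of a gene, only the 2 zones compared, and each array left out. The count of members called was 0 in every comparison of zones under all of them. Leaving out arrays also gave 0 for age. For age it was 1 (Papss2) with values as deposited and 1 with median-centred arrays. Leaving out an array can only keep or raise the count of members with the remaining hypertrophic arrays lowest. This count ran from 7 to 12, against 5.36% to 18% of all genes. The 12 came with only 1 hypertrophic array left. It was 14 (against 22.6% of all genes) without the reserve arrays and the 42-day hypertrophic array. The count itself and its alternatives were chosen after seeing the data, and fewer arrays make the condition easier. All 624 recomputed differences of named genes kept their sign. With an array left out, this followed from the choice of genes. Their arrays were separated between the 2 zones, or moved alike in all 4 zones. Several other alternatives left such differences unchanged, so the count says little about stability. Every zone has the same 2 ages, and with age as a replicate block the count of members called was again 0 in each comparison of zones, with a smallest adjusted p of 0.0843 for reserve against hypertrophic. The age differences of the zones correlated across probe sets with r from 0.0225 to 0.0806 (0.0581 to 0.31 over the brightest share of 0.2). The main fit left age out because the labels call the ages replicates, and these correlations do not show that pairing was absent. With the block, members at an unadjusted p below 0.05 numbered 9 (from 7) for perichondral against hypertrophic, and 6 higher and 2 lower (from 3 and 1) for proliferative against hypertrophic. Probe sets called among zones numbered 96 (from 12). Median-centring moved the median difference of all genes between reserve and proliferative arrays from 0.06 to 0.234, and that between the ages from -0.06 to -0.176. The median member difference kept its sign under every alternative except for perichondral against reserve (turned in 4 of 17) and perichondral against proliferative (turned in 2 of 17).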

Other observations

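Among the genes with several probe sets, the dimmer ones often did not follow the chosen one. The chosen Chpf2 probe set, for a chondroitin polymerising factor, had a perichondral-to-hypertrophic difference of -0.35, and its other probe sets had -1.21 and -2.76. Chst12, a chondroitin sulfotransferase, had 0.81 and -1.48. Extl3, which starts heparan chains, had 1.98 and -0.47. For Hs2st1, a heparan sulfotransferase, the 3 probe sets gave 1.23, 0.58 and 0.21.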
